A study of Mus musculus with 6 samples.

Results

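Tnf and Il10 encode cytokines of opposite effect that macrophages make in response to lipopolysaccharide (LPS), a component of Gram-negative bacteria sensed by Toll-like receptor 4. They were taken by their gene identifiers, ENSMUSG00000024401.14 for Tnf and ENSMUSG00000016529.5 for Il10, and are 2 of the 964 genes with a read among 56262 gene identifiers. Both had reads in all 6 libraries. The libraries came from gene-specific TAIL-seq of bone marrow-derived macrophages (BMDMs), cells differentiated in culture from the marrow of 7-week-old female C57BL/6J mice that were wild-type or Tut7-/-. Tut7-/- mice carry a CRISPR deletion of the gene of terminal uridyltransferase 7, which puts uridines on the 3′ ends of RNAs. All cells were differentiated for 7 days with 20% L929-conditioned medium and kept in 10 ng/ml M-CSF, and were either untreated (Ctrl) or stimulated with LPS for 2 h or 4 h.

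Each genotype had 1 library per time, and there were thus no replicates. The series text mentions duplicates, but the sources used here do not say if a library is a pool. TAIL-seq joins a linker to RNA ends, and PCR with primers on the linker and on chosen genes then enriches the transcripts of those genes. Read counts therefore give the make-up of this PCR pool rather than levels per cell, and a change of transcripts per cell cannot be told apart from a change elsewhere in the pool. The tables held 21408 to 56718 reads per library. Zc3h12a, which encodes the ribonuclease Regnase-1, took 45.1% to 62.5% of them. Tut7 had 0 reads in all 6 libraries, so the knockout label could not be checked. Of 8 macrophage markers only Lyz2 was seen, with 2 reads, and the markers of T cells, B cells, neutrophils, dendritic cells and fibroblasts were all at 0, so the labelled cell type could not be checked either. All intervals are 95% intervals. They describe counting error alone and treat reads as independent. Reads copied by PCR and not tagged by molecule are not independent, so the intervals can be too narrow even for counting error. Intervals between libraries compare the libraries and not the conditions.

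TNF is a rapidly produced inflammatory cytokine that acts through its receptors to activate endothelium and leukocytes and to drive NF-kB signalling. IL-10 is an anti-inflammatory cytokine that signals through its receptor and STAT3 and restrains macrophage production of TNF and other cytokines. In macrophages the TNF transcript is known as an immediate response to LPS, while IL-10 is known as a later, feedback response. Both transcripts are short-lived, and AU-rich elements in the 3′-UTR, built from the pentamer ATTTA, are bound by decay factors such as tristetraprolin.

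In GRCm38/mm10, Tnf spans 35199381 to 35202007 of chromosome 17 on the minus strand, and Il10 spans 131019845 to 131024974 of chromosome 1 on the plus strand. Both are protein-coding genes. The GENCODE M21 transcript of Tnf has 4 exons and 1639 nt, of which the last 764 nt are 3′-UTR, and that of Il10 has 5 exons and 1310 nt with a 3′-UTR of 706 nt. The last 30 bases of each transcript are shown because TAIL-seq marks RNA ends with the linker. They are given 5′ to 3′ on the transcript strand with the polyadenylation signal AATAAA in capitals.
Tnf, chr17:35199381-35199410, minus strand: cgggtcattgagagaAATAAAgatcgcttg
Il10, chr1:131024945-131024974, plus strand: aattttgAATAAAtggatcttattcgaatt

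Both ends hold the signal, followed by 9 bases in Tnf and 17 in Il10, as do 47.9% of 40878 protein-coding transcripts with an annotated 3′-UTR of 30 nt or more, in their last 30 bases. The 30 bases of each 3′-UTR with the most ATTTA on the transcript strand are shown because AU-rich elements are known decay sites of cytokine transcripts. Overlapping copies were counted separately and are in capitals.
Tnf, chr17:35199676-35199705, minus strand: ATTTAttATTTATTTAttATTTATTTAttt
Il10, chr1:131024397-131024426, plus strand: ATTTAttacctctgatacctcagttcccat

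The Tnf window holds 5 copies, a number reached by 0.208% of these transcripts in any 30 bases of their 3′-UTR. The Il10 window holds 1, and 58.6% of transcripts have at least 1. No 30 bases of the Il10 3′-UTR hold more, so several windows tie, and the window shown starts at the first copy. Over the whole 3′-UTR, Tnf has 8 copies and Il10 6, and 7.65% and 12.6% of transcripts have at least as many. These matches describe the sequence, and no decay was measured in the counts.

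Tnf had its highest share of reads at LPS 2 h in both genotypes. In wild-type BMDMs it held 172 reads in Ctrl, 1373 at LPS 2 h and 826 at LPS 4 h, or 0.661% (interval 0.566% to 0.767%), 3.08% (2.92% to 3.24%) and 1.46% (1.36% to 1.56%) of the library. In Tut7-/- BMDMs it held 122, 1809 and 956 reads, or 0.570% (0.474% to 0.680%), 3.24% (3.09% to 3.39%) and 2.20% (2.06% to 2.34%). Within each genotype the intervals of the 3 conditions did not overlap. Differences beyond such intervals were usual in these libraries. For LPS 2 h over Ctrl, the interval of the share ratio lay above 1 for 29 and below 1 for 99 of 154 genes in wild-type BMDMs. In Tut7-/- BMDMs it lay above 1 for 24 and below 1 for 123 of 170 genes. Tnf stood at rank 11 of all genes in wild-type Ctrl and rank 12 in Tut7-/- Ctrl, and at rank 6 in all 4 LPS libraries.

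Il10 had its highest share at LPS 4 h in both genotypes, and more reads than Tnf in all 6 libraries. In wild-type BMDMs it held 393 reads in Ctrl, 2122 at LPS 2 h and 3501 at LPS 4 h, or 1.51% (1.37% to 1.67%), 4.76% (4.56% to 4.96%) and 6.17% (5.98% to 6.37%). In Tut7-/- BMDMs it held 286, 2367 and 3563 reads, or 1.34% (1.19% to 1.50%), 4.23% (4.07% to 4.40%) and 8.18% (7.93% to 8.45%). The intervals of its 3 conditions also did not overlap within a genotype, where differences beyond such intervals were usual, as given for Tnf. The sources used here give forward primers for Zc3h12a and Il6 and none for Tnf or Il10. Whether these 2 transcripts were targeted by primers of their own is therefore not known, and the higher count of Il10 is not shown to be a higher level of its transcript.

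**Figure D1:**
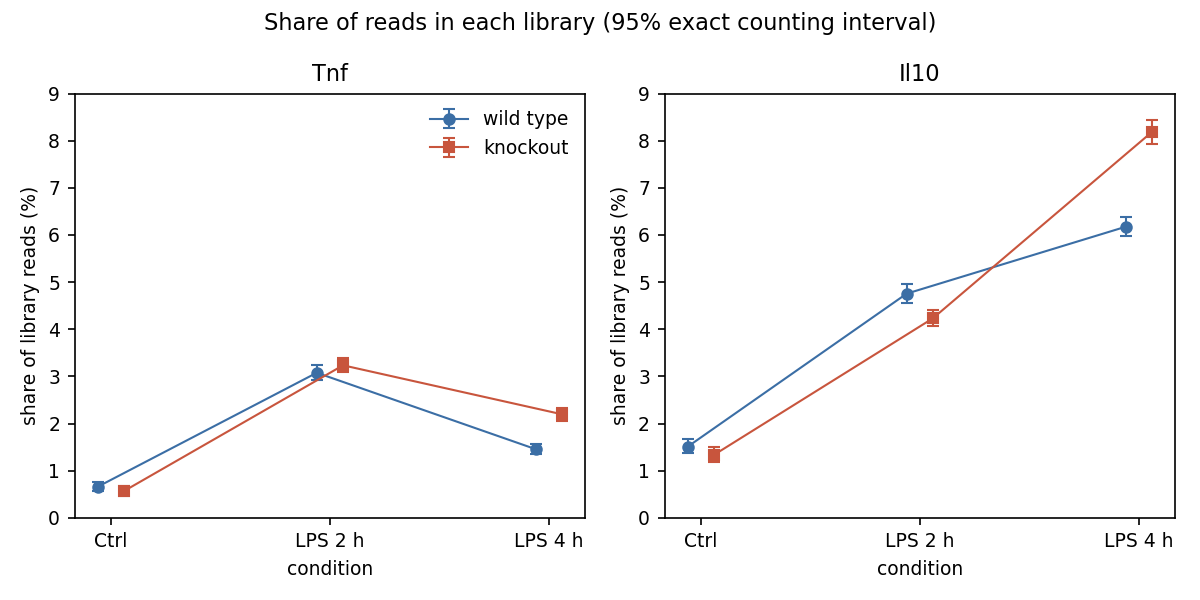
Share of library reads (%, y axis) of Tnf (left) and Il10 (right) in Ctrl, LPS 2 h and LPS 4 h (x axis), with circles for the 3 wild-type and squares for the 3 Tut7-/- libraries and bars for the exact 95% counting interval. Tnf is highest at LPS 2 h, at 3.08% and 3.24%, and Il10 at LPS 4 h, at 6.17% and 8.18%.

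Against Ctrl, both cytokines took a larger share after LPS at both times, which share 1 Ctrl library per genotype. In wild-type BMDMs Tnf was 4.66-fold higher at 2 h (3.97 to 5.49) and 2.20-fold higher at 4 h (1.87 to 2.61), while Il10 was 3.15-fold (2.83 to 3.52) and 4.09-fold higher (3.68 to 4.55). In Tut7-/- BMDMs Tnf was 5.68-fold (4.72 to 6.88) and 3.85-fold higher (3.19 to 4.69), and Il10 3.17-fold (2.80 to 3.60) and 6.13-fold higher (5.43 to 6.93). Such rises were a minority. Among the genes with at least 10 reads in a pair of libraries, an interval above 1 was found for 18.8% of 154 genes at 2 h and 16.6% of 151 at 4 h in wild-type, and for 14.1% of 170 and 14.0% of 157 in Tut7-/- BMDMs. The size depended on the scaling. Over the 5 scalings tried, the log2 ratio of Tnf at 2 h lay between 2.21 and 4.30 in wild-type and between 2.50 and 4.91 in Tut7-/- BMDMs. That of Il10 at 4 h lay between 2.03 and 4.52, and between 2.61 and 5.02. All intervals of both genes stayed above 1 in these 5 scalings.

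To set the early against the late cytokine, the Tnf to Il10 read ratio was taken within each library, where library size and its scaling cancel. In Ctrl there were 0.438 Tnf reads per Il10 read in wild-type (0.364 to 0.525) and 0.427 in Tut7-/- BMDMs (0.342 to 0.529). At LPS 2 h the ratio was 0.647 (0.604 to 0.693) and 0.764 (0.719 to 0.813). At LPS 4 h it was 0.236 (0.218 to 0.255) and 0.268 (0.250 to 0.288). Both libraries of LPS 2 h thus lay above both Ctrl libraries, and both of LPS 4 h below them, with no overlap between the intervals of different times.

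**Figure D2:**
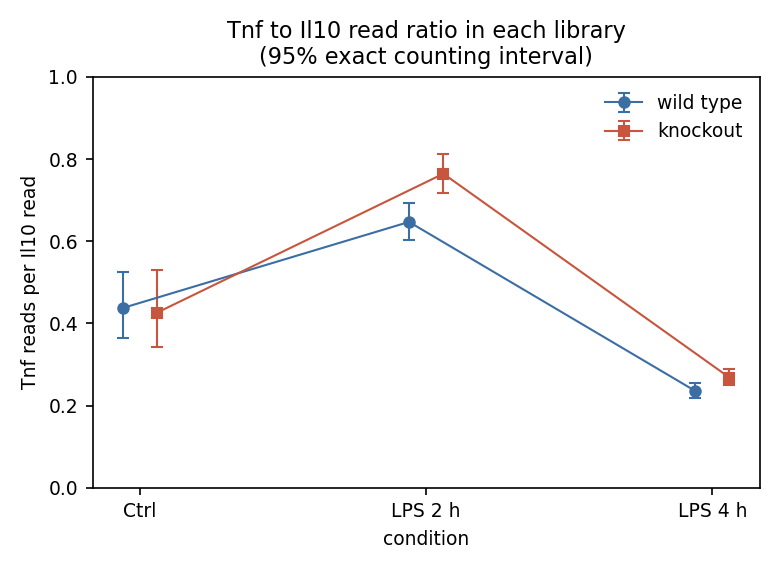
Tnf reads per Il10 read (y axis) in Ctrl, LPS 2 h and LPS 4 h (x axis), with circles for the wild-type and squares for the Tut7-/- libraries, and bars for the exact 95% counting interval. The ratio goes from 0.438 and 0.427 in Ctrl to 0.647 and 0.764 at LPS 2 h and to 0.236 and 0.268 at LPS 4 h.

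From Ctrl to LPS 2 h the ratio was 1.48-fold higher in wild-type (exact conditional interval 1.22 to 1.80) and 1.79-fold higher in Tut7-/- BMDMs (1.43 to 2.25). From LPS 2 h to LPS 4 h it went to 0.365-fold (0.329 to 0.404) and 0.351-fold (0.319 to 0.386) of its value. It thus also ended below Ctrl, at 0.539-fold (0.442 to 0.659) and 0.629-fold (0.501 to 0.794). The change from 2 h to 4 h in Tut7-/- was 0.963 times that in wild-type BMDMs, with a Wald interval from 0.838 to 1.11 that held 1.

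With libraries as the unit, the geometric mean ratio was 2.79-fold higher at LPS 2 h than at LPS 4 h (2 against 2 libraries). A two-sided exact permutation test gave p = 0.333, which is the smallest p this design allows. LPS 2 h against Ctrl (1.63-fold) and LPS 4 h against Ctrl (0.582-fold) gave the same exact permutation p of 0.333, again the smallest possible. The 4 LPS libraries together against the 2 Ctrl libraries gave 0.974-fold and an exact permutation p of 0.933, with 0.0667 as the smallest possible, since the ratio moved in opposite directions at the 2 times. Paired within genotype, a test added after seeing the data, the log2 ratio was higher at LPS 2 h than at LPS 4 h by 1.46 in wild-type and 1.51 in Tut7-/- BMDMs. The exact permutation p of these 2 pairs was 0.50, the smallest they allow. None of these permutation tests can pass 0.05.

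LPS 4 h was then compared with LPS 2 h for each gene alone. Tnf was lower at 4 h, with a fold of 0.473 in wild-type (0.434 to 0.516) and of 0.679 in Tut7-/- BMDMs (0.627 to 0.735). Il10 was higher at 4 h, with folds of 1.30 (1.23 to 1.37) and 1.93 (1.84 to 2.04). Many genes moved by more in these libraries. An interval below 1 was found for 45.6% of 103 genes in wild-type and 38.3% of 107 in Tut7-/- BMDMs, and one above 1 for 26.2% and 31.8%. The median gene was at -0.80 and -0.31 on the log2 scale, against -1.08 and -0.56 for Tnf and 0.38 and 0.95 for Il10. Relative to the median gene Tnf was thus at -0.28 and -0.25, and 56 genes in wild-type and 58 in Tut7-/- had a larger log2 ratio, against 37 and 31 for Il10.

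**Figure D3:**
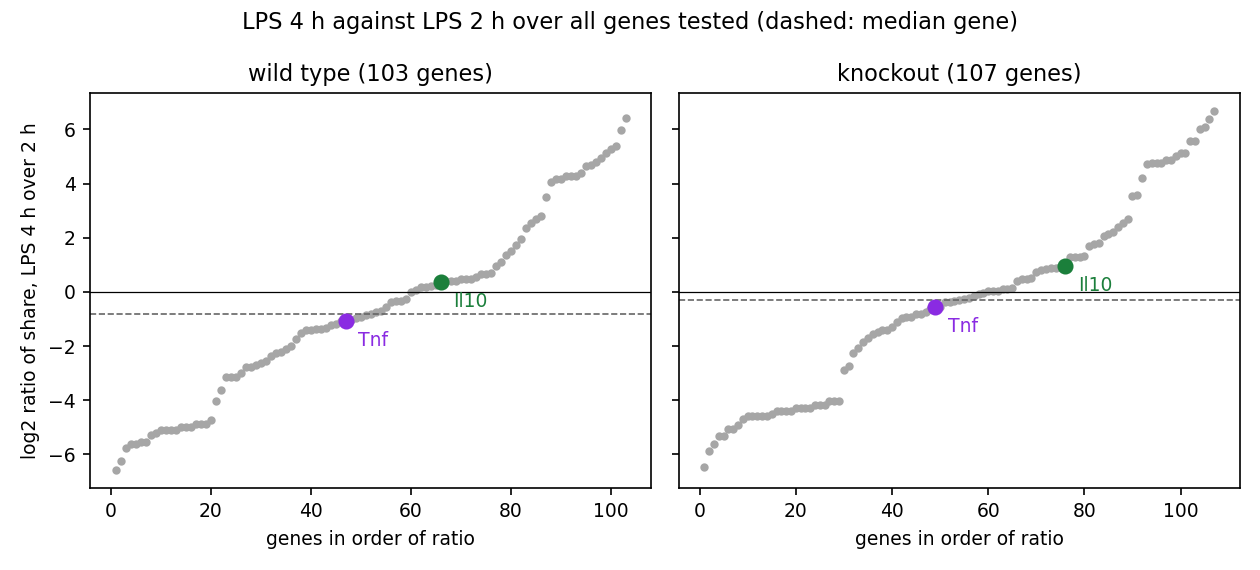
Log2 ratio of share at LPS 4 h over LPS 2 h (y axis) for all genes whose 2 libraries together held at least 10 reads, in order of the ratio (x axis), in wild-type (103 genes, left) and Tut7-/- BMDMs (107 genes, right), with the median gene as a dashed line. Tnf, at -1.08 and -0.56, lies just below the median gene, and Il10, at 0.38 and 0.95, above it and above 0.

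The direction of Tnf from 2 h to 4 h held in all 5 scalings, with log2 ratios from -1.41 to -0.37 in wild-type and from -0.90 to -0.53 in Tut7-/- BMDMs. Il10 stayed above 0, from 0.04 to 1.08 and from 0.61 to 0.98, but in wild-type its interval held 1 (0.974 to 1.09) when Zc3h12a and Il6 were left out of the library size.

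An additive model over all 6 libraries, in which the genotypes stand in for replicates of a time, tested the same comparison across 115 genes. Il10 was 0.67 ± 0.27 higher at 4 h than at 2 h (log2, SE; unadjusted p = 0.0307) and Tnf -0.80 ± 0.32 (unadjusted p = 0.0302), each with an adjusted p of 0.397 in the quasi-likelihood test of edgeR after Benjamini-Hochberg adjustment. Neither passed, and 0 of 115 genes (0%) were called, while 10 had an unadjusted p under 0.05. Both limma-voom and the Wald test of DESeq2 called 0 genes, where 13 and 8 had an unadjusted p under 0.05. Over these and the other settings, without leaving out a library, the adjusted p ranged from 0.197 to 1 for Il10 and from 0.156 to 1 for Tnf. Il10 was at 0.95 without the wild-type LPS 4 h library, and Tnf at -1.15 without the Tut7-/- LPS 4 h library. In these 2 fits LPS 4 h rests on 1 library, so the values lie near the ratios of 1 genotype. Those were 0.95 for Il10 in Tut7-/- and -1.08 for Tnf in wild-type BMDMs. With 2 residual degrees of freedom, the model takes any difference between the genotypes in the time course as spread.

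Ratios to 3 other abundant genes, which also need no scaling, placed the pair in the pool. Against Zc3h12a there were 1.34, 4.92 and 2.78 Tnf reads per 100 Zc3h12a reads in wild-type BMDMs over the 3 conditions in order of time, and 1.26, 5.39 and 4.10 in Tut7-/- BMDMs. There were 3.07, 7.61 and 11.8 Il10 reads per 100 in wild-type, and 2.97, 7.05 and 15.3 in Tut7-/- BMDMs. The early maximum of Tnf and the late maximum of Il10 were thus also present relative to the most abundant gene. From 2 h to 4 h, Tnf per Zc3h12a went to 0.565-fold (0.517 to 0.617) and 0.761-fold (0.702 to 0.825), and Il10 per Zc3h12a to 1.55-fold (1.46 to 1.64) and 2.17-fold (2.05 to 2.29).

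Il6, an inflammatory cytokine, had 2 reads in Tut7-/- Ctrl and 0 in wild-type Ctrl, where the exact interval of its share reached 0.0142%. Ratios to Il6 were therefore taken in LPS libraries only. Tnf went from 0.795 to 0.282 reads per Il6 read between 2 h and 4 h in wild-type and from 0.909 to 0.447 in Tut7-/- BMDMs. Il10 per Il6 read was 1.23 and 1.20 in wild-type, a 0.975-fold change whose interval held 1 (0.899 to 1.06). In Tut7-/- BMDMs it went from 1.19 to 1.66, or 1.40-fold (1.29 to 1.52). Tnf per Il6 read was lower at 4 h in both genotypes, with a fold of 0.355 in wild-type (0.320 to 0.395) and of 0.491 in Tut7-/- BMDMs (0.444 to 0.543). For both cytokines the intervals of the 2 genotypes did not overlap, and both changes were shifted upward in the Tut7-/- libraries. How many other genes had such a gap was not counted. Relative to the median gene, the log2 ratio of 4 h to 2 h was 1.22 for Il6 in wild-type and 0.77 in Tut7-/- BMDMs. By this measure Tnf (-0.28 and -0.25) and Il10 (1.18 and 1.26) differed less between the genotypes than Il6 did.

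Usp18, a protease for ISG15-modified proteins that interferon induces, gave a like result between LPS 2 h and LPS 4 h. Tnf per Usp18 read went from 0.764 to 0.302 between 2 h and 4 h in wild-type and from 0.660 to 0.420 in Tut7-/- BMDMs, or 0.395-fold (0.355 to 0.439) and 0.636-fold (0.577 to 0.701). Il10 per Usp18 read went from 1.18 to 1.28 in wild-type, with an interval of the 1.08-fold change that held 1 (0.999 to 1.18), and from 0.864 to 1.56 in Tut7-/- BMDMs, or 1.81-fold (1.68 to 1.96). Here too the intervals of the 2 genotypes did not overlap for either cytokine, and such gaps were not counted over other genes. Usp18 itself was at 1.06 in wild-type and 0.40 in Tut7-/- BMDMs relative to the median gene (log2, 4 h over 2 h). In Ctrl, where Usp18 had 133 and 148 reads, there were 1.29 and 0.824 Tnf reads and 2.95 and 1.93 Il10 reads per Usp18 read. Unlike the ratios to Zc3h12a, those to Usp18 were thus highest in Ctrl for both cytokines and both genotypes. Only for Tnf from Ctrl to LPS 2 h in Tut7-/- BMDMs did the interval of the change hold 1 (0.621 to 1.03).

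Tut7-/- BMDMs were compared with wild-type BMDMs at each time, with 1 library of each, so a difference between them cannot be assigned to the loss of Tut7. In Ctrl, the fold of Tnf over wild-type was 0.862 (0.678 to 1.09) and that of Il10 0.885 (0.757 to 1.03), and both intervals held 1. Of 191 genes, the interval lay above 1 for 38.7% and below 1 for 26.2%. At LPS 2 h Tnf was at 1.05-fold (0.980 to 1.13), an interval that held 1, and Il10 was lower at 0.890-fold (0.839 to 0.944). Among 115 genes, 28.7% had an interval above 1 and 33.9% below 1. At LPS 4 h Tnf was 1.51-fold higher (1.37 to 1.66) and Il10 1.33-fold higher (1.26 to 1.39). Of 97 genes, 41.2% had an interval above 1, so a rise of this kind was common there, and the median gene lay at 0.38 on the log2 scale against 0.59 for Tnf and 0.41 for Il10.

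These differences depended on the scaling more than on the counting error within the intervals. At LPS 4 h, TMM factors, which moved every log2 ratio by -0.78, turned Tnf to -0.19 and Il10 to -0.37. DESeq2 size factors gave 0.15 for Tnf and -0.03 for Il10 at 4 h, and 0.68 and 0.44 at 2 h, where Il10 had been lower. Leaving Zc3h12a and Il6 out of the library size gave -0.04 for Tnf at 2 h. In Ctrl the log2 ratios lay between -0.45 and -0.21 for Tnf and between -0.41 and -0.18 for Il10 over the 5 scalings, and the interval lay below 1 in 3 of them for Tnf and in 4 for Il10.

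The Tnf to Il10 ratio does not have this dependence. In Ctrl the ratio in Tut7-/- was 0.975-fold that in wild-type BMDMs (0.731 to 1.30), an interval that held 1. At LPS 2 h it was 1.18-fold higher (1.08 to 1.30) and at LPS 4 h 1.14-fold higher (1.02 to 1.26). These 2 differences were small beside the change of the ratio between 2 h and 4 h, which was 2.74-fold downward in wild-type and 2.85-fold downward in Tut7-/- BMDMs. Over the 3 libraries of each genotype the geometric mean ratio was 1.09-fold higher in Tut7-/- BMDMs, with a two-sided exact permutation p of 0.80, where 0.10 is the smallest possible. Paired within time, also added after seeing the data, the exact permutation p was 0.50, where 0.25 is the smallest possible.

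**Figure D4:**
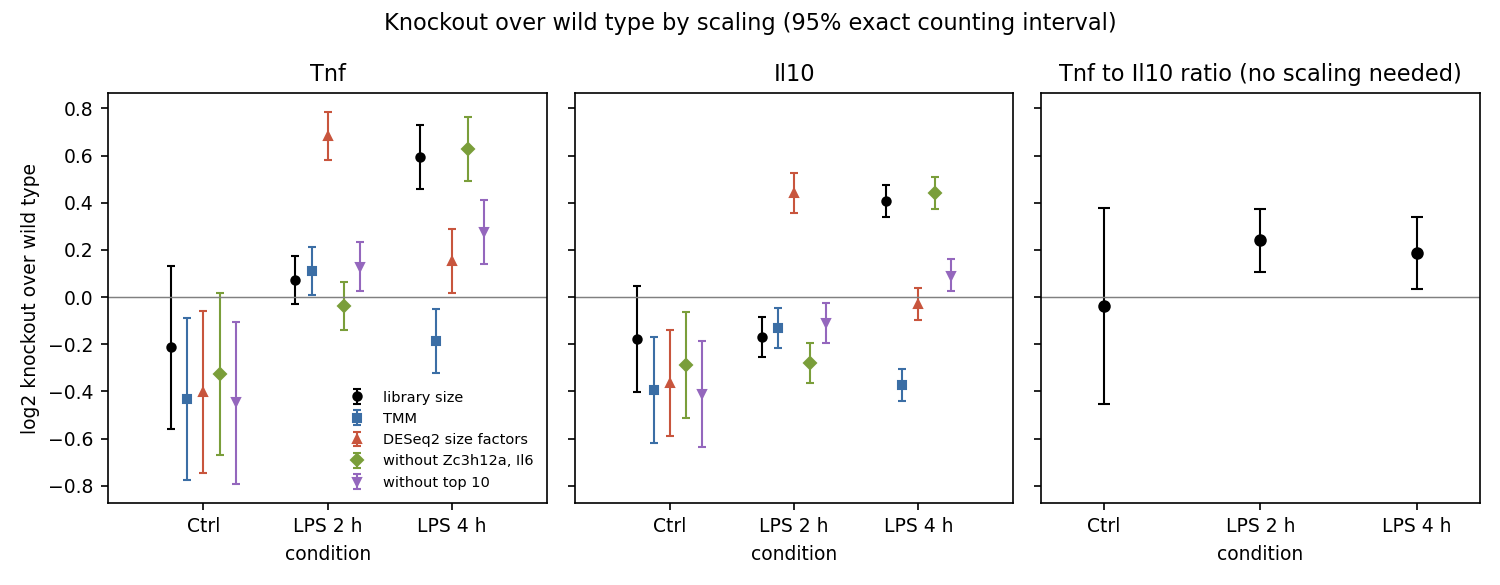
Log2 of Tut7-/- over wild-type (y axis) in Ctrl, LPS 2 h and LPS 4 h (x axis) for the share of Tnf (left) and Il10 (middle) under 5 scalings, marked by shape and colour, and for the Tnf to Il10 ratio (right), with bars for the exact 95% counting interval. At LPS 4 h Tnf lies at 0.59 with library size and -0.19 with TMM factors, while the ratio, which needs no scaling, lies at 0.19.

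In the additive model over the 3 times, Tnf was at 0.15 ± 0.26 and Il10 at 0.02 ± 0.22 in Tut7-/- against wild-type (log2, SE; adjusted p = 0.964 for both, edgeR quasi-likelihood test). None of 115 genes (0%) passed, and 2 had an unadjusted p under 0.05. Both limma-voom and the Wald test of DESeq2 called 0 genes here too, where 1 and 8 had an unadjusted p under 0.05. The sign was not stable, since TMM factors gave -0.17 for Tnf and -0.30 for Il10.

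Few other genes of the 2 cytokine pathways had reads. Of 31 cytokines and chemokines 7 had a read and 4 had 10 or more over all libraries, namely Il10, Il6, Tnf and Ccl9, a macrophage chemokine. Ccl9 held 16 reads in wild-type LPS 4 h and 0 in the other wild-type libraries, and 4, 0 and 12 in the Tut7-/- time course. Of 16 genes of the TNF arm (ligand, processing enzymes, receptors and signalling) 5 had a read, and only Tnf had 10 or more. Its receptor gene Tnfrsf1b had 9 reads, all at wild-type LPS 4 h. Of 14 genes of the IL-10 arm 6 had a read. Besides Il10, Etv3, an ETS-family repressor, had 10 or more, with 4, 11 and 6 reads in wild-type and 6, 8 and 11 in Tut7-/- BMDMs, while Il10ra, the ligand-binding receptor chain, had 3 in all. Of 17 cytokine mRNA decay factors found, Zc3h12a and Zfp36l1, a tristetraprolin relative, had reads, and the 18 reads of Zfp36l1 were all in wild-type Ctrl. Of 18 genes of Toll-like receptor 4 signalling only Traf6, an adaptor ubiquitin ligase, was seen, with 4 reads. 

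Profiles over the 6 libraries were compared with those of the 60 other genes with a mean of 10 or more reads per library, by the root-mean-square difference of log2 shares after centring each gene. The profile nearest to Tnf was that of Il10, at 0.61, followed by Usp18 at 0.68 and Zc3h12a at 0.84, against a median of 2.55 over the genes compared. The profile nearest to Il10 was that of Usp18, at 0.56, followed by Tnf at 0.61, against a median of 2.66. These distances share the library totals and describe 6 libraries. Among the genes compared, Tnf and Il10 were thus near to each other, while they differed in the order of 2 h and 4 h.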

How the data were processed

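The authors aligned reads to mm10 with HISAT2, as the file headers and processing notes state, and deposited raw read counts per gene. For the counter, the tool versions, the use of strand and the removal of PCR duplicates, nothing is given in the sources used here, so reads of overlapping or antisense genes cannot be told apart. Columns were matched to samples through the index in the sample descriptions, and groups came from the titles. The authors' Il6 read lists were not used.

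Shares have exact Clopper-Pearson intervals and share ratios exact conditional binomial intervals (SciPy), where the pair held 10 or more reads of a gene. Log2 ratios carry a pseudocount of 0.5 read, and folds do not. The unit of scaling was the library size. For the limit set by depth, a count of 0 was taken to allow 3 reads, apart from the exact intervals. The additive model (genotype and LPS time) was fitted with edgeR 4.0.16 in R 4.3.3 (glmQLFit, glmQLFTest) to 115 genes that passed filterByExpr, with Benjamini-Hochberg adjustment and a threshold of 0.05. Its SE is the log2 value over the square root of F. It was tested on simulated data in which genes outside the 10 most abundant changed, and, since Tnf and Il10 are among these 10, also with known changes of these cytokines at LPS 4 h. At a low dispersion the latter were nearly always called with the right sign, and at the fitted common dispersion of 0.859 mostly missed. That dispersion is common to all genes tested, and whether it holds for Tnf and Il10 was not tested. Whether the model would call changes as small as those fitted here was not tested. These were 0.67 for Il10 and -0.80 for Tnf (log2, 4 h against 2 h). Where a change of abundant genes moved the library size, unchanged genes were called as well. The alternatives tried were the DESeq2 1.42.0 size factors and Wald test, TMM factors, limma-voom (limma 3.58.1), a library size that left out either Zc3h12a and Il6 or the 10 genes with the most reads, other filters, a pseudocount of 2, each library left out and, added after seeing the data, a paired permutation test.

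Genes named are Tnf, Il10, the references Zc3h12a, Il6 and Usp18, list genes with 10 or more reads over all libraries, and the 3 genes nearest in profile to Tnf and to Il10, of which 1 is not reported here. Tnfrsf1b, Il10ra, Traf6 and Lyz2 were added after their values were seen. The genes and lists were chosen with earlier results of these data known. Sequences came from GENCODE M21 (GRCm38/mm10).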

Additional observations from a re-analysis of the deposited data

Results flagged for a closer look

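The difference between Tut7-/- and wild-type BMDMs had opposite signs at different times. For the share of Tnf the log2 ratio of Tut7-/- to wild-type was -0.21 in Ctrl, 0.072 at LPS 2 h and 0.59 at LPS 4 h. For Il10 it was -0.18, -0.17 and 0.41. With 1 library in each group these changes of sign were not tested, and with TMM factors the Il10 difference stayed below 0 at all 3 times.

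The log2 fold of the Tnf to Il10 read ratio between the genotypes was -0.037 in Ctrl, 0.24 at LPS 2 h and 0.19 at LPS 4 h. The change of the ratio from Ctrl in Tut7-/- was 1.21 times that in wild-type BMDMs at 2 h (Wald interval of counting error 0.905 to 1.62) and 1.17 times at 4 h (0.868 to 1.57), and both intervals held 1.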

How the results depend on the processing

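Among 29 results, 123 of 147 alternatives were counted as unchanged. A called value had to keep its direction and its side of the threshold. A value that was not called counted as unchanged if it stayed so, whatever its sign. The 123 thus include changes of sign, such as Tnf in Tut7-/- against wild-type in the additive model (0.15, and -0.17 with TMM factors). The pseudocount of 2 changed none of them, but it could hardly do so, since it does not enter the intervals and the counts were far larger. For the shares with this pseudocount, and for the paired tests, the alternative was counted as unchanged without a check. For Tut7-/- against wild-type in Ctrl the interval left out 1 for Tnf with TMM factors (-0.43), without the 10 most abundant genes (-0.45) and with DESeq2 size factors (-0.40), and for Il10 with these (-0.39, -0.41 and -0.36) and without Zc3h12a and Il6 (-0.29). At LPS 2 h the same 3 scalings put Tnf above 1 (0.11, 0.13 and 0.68), and DESeq2 size factors turned Il10 to 0.44. At LPS 4 h TMM factors turned Tnf to -0.19 and Il10 to -0.37, and DESeq2 size factors turned Il10 to -0.031. From 2 h to 4 h in wild-type, Il10 at 0.040 no longer passed without Zc3h12a and Il6. The cause of these changes is the scaling itself, which moves every gene of a pair alike. In the additive model of 4 h against 2 h, TMM factors, DESeq2 size factors and the library size without the 10 most abundant genes called 1 gene each, and that gene was neither Tnf nor Il10. With 1 library left out, 0 to 5 genes were called, Il10 lay between 0.37 and 0.95 and Tnf between -1.15 and -0.49. For Tut7-/- against wild-type, Il10 then lay between -0.17 and 0.12 and Tnf between -0.069 and 0.33. A left-out library leaves its condition with 1 sample, assumed to vary like the others, so calls of these fits are not given. The 3 genes nearest in profile to each cytokine were the same with TMM factors. No paired analysis by replicate number was possible because the groups share only 1 number. Pairing the Tnf to Il10 log2 ratio within genotype (1.48) or within time (0.13) left the mean differences as they were by construction. Depth limits comparisons to abundant genes, since a count of 0, taken to allow 3 reads, leaves room for a share of up to 0.014%.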
